A study of Mus musculus with 141 samples.

Results

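The organic ion transporters of the Slc22a and Slco gene families were examined in liver, lung and kidney of Collaborative Cross mice, which are recombinant inbred strains derived from a common set of founder strains. Members were all gene symbols in the files that start with Slc22a or Slco followed by a digit, which gave 41 of 24423 genes, 26 of them Slc22a and 15 Slco. Each of 47 strains was represented by 1 male mouse of 8 to 12 weeks, and each mouse gave all 3 tissues, so that there were 47 RNA-seq libraries per tissue. Every mouse was fed the NTP 2000 diet and spent 6 hours a day on weekdays in mesh chambers supplied with clean air, so the groups differ in tissue and strain and in no treatment. With 1 male per strain, a difference between strains cannot be told apart from a difference between individual mice, and females were not analysed here.

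Slc22a genes encode transporters of small organic ions across the plasma membrane: organic cation transporters move drugs and amines down their electrochemical gradient, carnitine transporters bring in carnitine for fatty acid oxidation, and organic anion transporters exchange anionic drugs, urate and metabolites for dicarboxylates. Slco genes encode organic anion transporting polypeptides, which take up bile acids, conjugated steroids, thyroid hormones, prostaglandins and many drugs. In liver these proteins sit mainly on the blood side of hepatocytes. In kidney they carry solutes into or out of the cells of the proximal tubule, and several rodent genes of both families are known to depend on sex hormones or growth hormone.

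The total count ranged from 1738046 to 42158454 per library, with medians of 10423382 in liver, 9338124 in lung and 8245850 in kidney, and 11 libraries held under 4000000 counts. Rn45s, the precursor of ribosomal RNA, made up 34.9% of all counts in the median liver library, 18.0% in the median lung library and 25.4% in the median kidney library, and as much as 71.7% in 1 library. Levels are therefore given as TPM (transcript abundance scaled to transcript length and library size) after TMM scaling within each tissue, which multiplied the deposited TPM of a library by 0.701 to 3.94. Differences between tissues are log2 fold changes of counts scaled by TMM over all 3 tissues, and the 2 scales differ. Relative to the TMM scale, scaling by total counts moved the median log2 fold change of all genes by -1.37 for liver over lung, by -0.95 for liver over kidney and by 0.42 for lung over kidney, log2(TPM + 1) moved it by -1.36, -0.88 and 0.49, and DESeq2 size factors by -0.24, -0.10 and 0.14. The TPM of a gene in liver thus reads low beside the same gene's TPM in lung or kidney, and the tests rest on the TMM scale.

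Markers of hepatocytes, proximal tubule and alveolar cells were highest in liver, kidney and lung, while some other sets were highest in lung as well. The summed TPM of 5 hepatocyte markers had a median of 86683 in liver against 185 in lung and 3346 in kidney, and that of 7 proximal tubule markers a median of 87291 in kidney against 60.1 in liver and 125 in lung. The sum of 5 alveolar markers had a median of 18278 in lung against 19.3 in liver and 15.3 in kidney. Podocyte markers had a median of 216 in lung against 121 in kidney. Those of sinusoidal endothelium had 333 in lung against 69.1 in liver, and those of cholangiocytes 415 in lung against 3.44 in liver. The highest proximal tubule sum outside kidney was 1719 in liver of CC035, and the highest hepatocyte sum in lung was 1449 in CC010.

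A cluster of related Slc22a organic anion transporter genes lies on chromosome 19, and the strain differences described further on turn on its members. In NCBIM37, the mouse build to which the authors aligned, the minus strand carries Slc22a19 at chr19:7747551-7785800, Slc22a26 at chr19:7855531-7877157, Slc22a27 at chr19:7938881-8040517, Slc22a28 at chr19:8136699-8206472, Slc22a29 at chr19:8234655-8337108 and Slc22a30 at chr19:8409861-8479601. Slc22a8 at chr19:8665744-8686324 and Slc22a6 at chr19:8692486-8702789 follow on the plus strand. Slc22a28 and Slc22a30 are near copies, and their sequences are shown because reads of 50 bases had to be assigned to one or the other. Over 1659 coding bases they differ at 20, an identity of 98.8%, whereas Slc22a26 and Slc22a28 differ at 439 (73.5% identity). Aligned stretches of 94 bases just before their annotated starts differ at 2 bases, given in capitals (RefSeq, GRCm38.p6, minus strand, chr19:8131983-8132076 for Slc22a28 and chr19:8405112-8405205 for Slc22a30).
Slc22a28: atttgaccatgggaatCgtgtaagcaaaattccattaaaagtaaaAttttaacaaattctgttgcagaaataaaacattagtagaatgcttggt
Slc22a30: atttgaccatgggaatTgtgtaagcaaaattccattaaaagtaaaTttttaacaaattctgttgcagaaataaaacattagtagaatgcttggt
The fourth coding exon differed at the most bases, along with the seventh, and differs at 5 of 169 bases, again in capitals (NCBIM37, minus strand, chr19:8191227-8191395 for Slc22a28 and chr19:8460882-8461050 for Slc22a30).
Slc22a28: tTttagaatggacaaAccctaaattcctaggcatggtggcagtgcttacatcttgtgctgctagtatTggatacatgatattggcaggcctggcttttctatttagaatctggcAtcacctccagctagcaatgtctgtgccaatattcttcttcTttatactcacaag
Slc22a30: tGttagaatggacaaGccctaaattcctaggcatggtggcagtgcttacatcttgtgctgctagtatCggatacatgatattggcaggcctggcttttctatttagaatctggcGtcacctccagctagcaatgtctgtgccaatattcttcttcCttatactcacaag
The first coding exon, 402 bases long, is identical in the 2 genes. Of the 50-base windows of their annotated transcripts, 45.9% of 1955 for Slc22a28 and 49.5% of 3409 for Slc22a30 occur once in the genome, and 1042 windows occur in both genes. The authors counted only uniquely aligned reads. Slc22a27 and Slc22a29 are alike too, with 45 of 1656 coding bases differing and 572 windows shared, and 812 windows are shared by Slc22a5 and Slc22a21. Counts of these genes are uncertain to that extent.

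**Figure D1:**
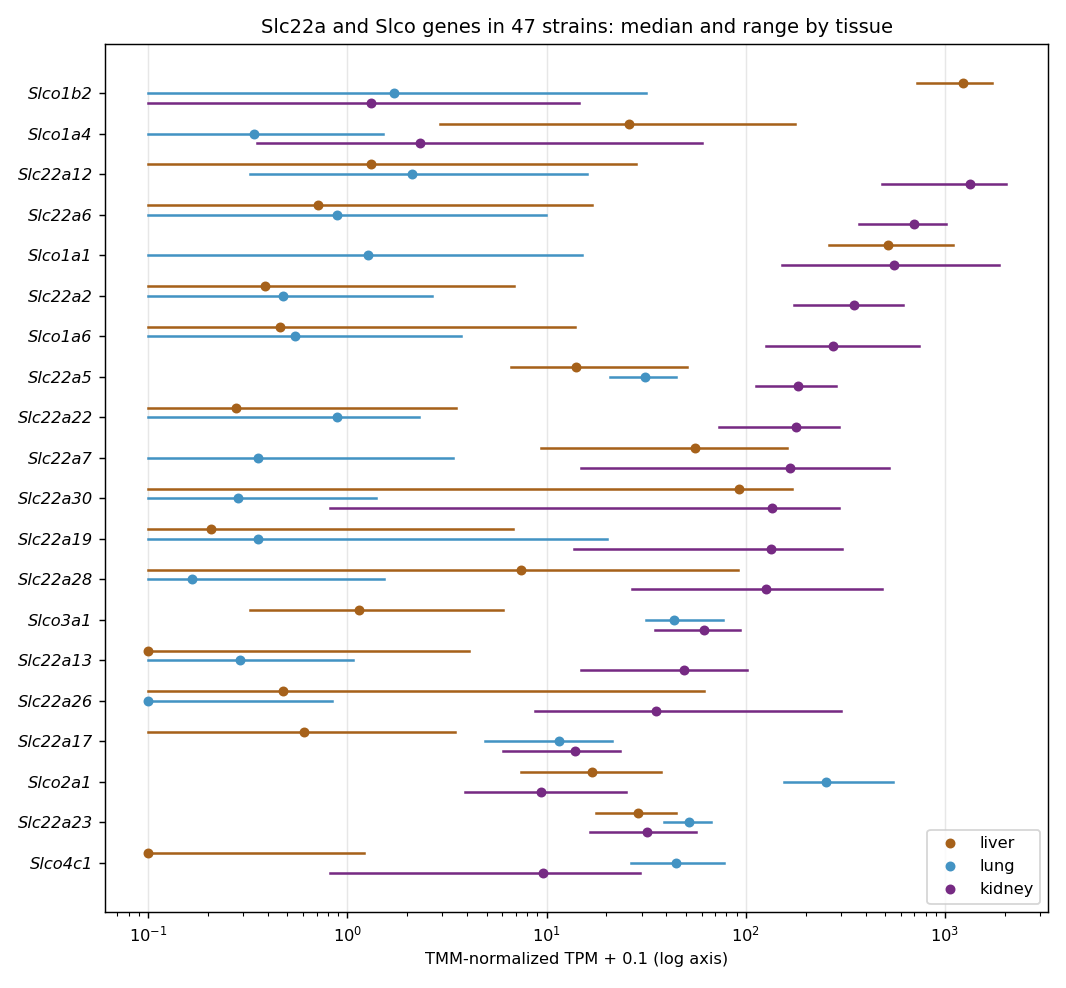
Of the members with a mean of at least 10 TPM in some tissue, 20 are plotted with the median (point) and the lowest and highest library (line) over 47 strains per tissue, as TMM-normalized TPM + 0.1 on a log axis. Slco1b2 was high in liver, Slco2a1 in lung, and Slc22a12, Slc22a6 and Slc22a2 in kidney, and the lines of Slc22a30 in liver and kidney reach down to almost 0.

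Summed over all 41 members, the level was 2400.1 ± 411 TPM in liver (mean ± SD, n = 47), 490.1 ± 78.3 TPM in lung and 4873 ± 972 TPM in kidney. No order of liver and kidney is read from these sums, because the scale of TPM differs between the tissues. A different gene led each tissue. Slco1b2 made up 51.7% of the liver sum and Slco1a1 24.8%, Slco2a1 made up 53.5% of the lung sum and Slc22a23 10.8%, and in kidney Slc22a12 made up 25.5% and Slc22a6 14.5%. A mean of at least 10 TPM was reached by 10 members in liver, 6 in lung and 19 in kidney. In whole tissue, fewer cells of a type and less RNA per cell cannot be told apart.

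The tissue tests covered the 28 members that exceeded 1 CPM (the count scaled to library size) in 30% or more of the libraries, fitted together with all other genes by limma-voom with strain as a block. A member was called at a Benjamini-Hochberg q of at most 0.1 where its log2 fold change was 1 or more in size. Between lung and kidney 23 of 28 members were called, 5 higher in lung and 18 higher in kidney, where 46.1% of all 12127 genes tested were called (25.5% higher in lung, 20.6% higher in kidney). Between liver and kidney 22 were called, 6 higher in liver and 16 higher in kidney, against 36.4% of all genes (15.6% and 20.8%). Liver and lung differed in 18 members, 12 higher in liver and 6 higher in lung, against 55.0% of all genes (23.9% and 31.0%). The calls against kidney thus made up a larger share of the members than of all genes and lay mostly on the kidney side. The median log2 fold change of the members was 0.57 for liver over lung, -2.06 for liver over kidney and -5.20 for lung over kidney, whereas the medians of all genes were -0.06, -0.00 and 0.04. The libraries of the 2 tissues did not overlap in CPM for 9 members between liver and lung (26.1% of all genes), 11 between liver and kidney (13.2%) and 17 between lung and kidney (22.6%). The 28 members passed the filter through the tissue in which they are high, so these counts describe the expressed members and not the families as a whole.

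**Figure D2:**
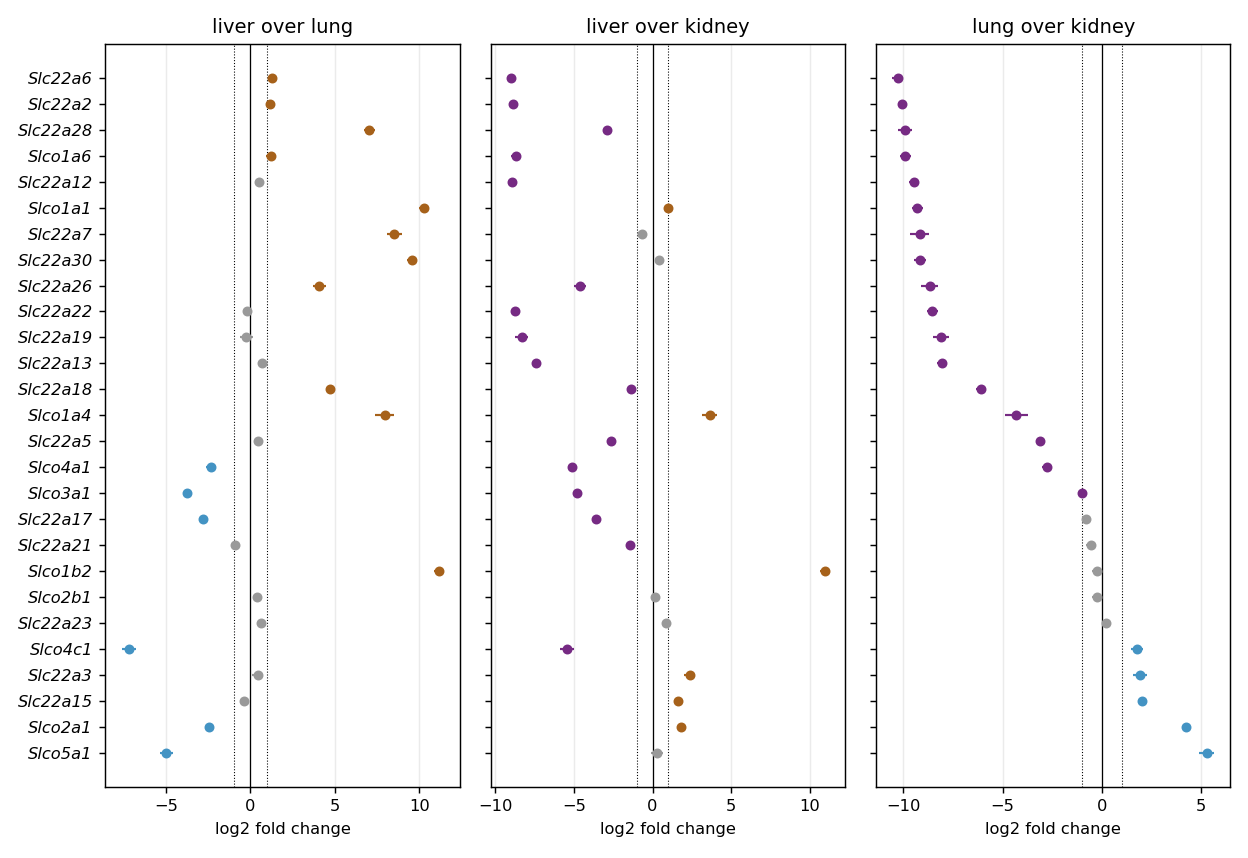
Log2 fold changes of 27 of the 28 tested members on the TMM scale are plotted with bars of 2 standard errors on each side for liver over lung, liver over kidney and lung over kidney; coloured points passed the threshold and point to the tissue with the higher level, grey points did not, and dotted lines mark an absolute log2 fold change of 1. The organic anion transporters of the Slc22a family line up on the kidney side of the right panel, with Slc22a6 at -10.28, and the calls of Slc22a2, Slc22a6, Slco1a6 and Slc22a26 in the left panel and of Slco1a1, Slco2a1, Slc22a15 and Slc22a3 in the middle panel are turned or lost on the log2(TPM + 1) scale, as is that of Slco3a1 in the right panel.

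Among the organic cation and carnitine transporters, 5 of 7 members were tested, and kidney was the tissue with the higher level in most calls: 3 of 5 were higher in kidney than in liver and 3 of 5 higher in kidney than in lung. Of all genes tested, 20.8% were higher in kidney than in liver and 20.6% higher in kidney than in lung.

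Slc22a2, an organic cation transporter of the basolateral membrane of the renal tubule, was a kidney gene in these libraries. Its median was 350.1 TPM in kidney (174 in CC020 to 615 in CC062), 0.285 TPM in liver (0 to 6.74, the highest in CC035) and 0.376 TPM in lung (0 to 2.56, the highest in CC040). All kidney libraries lay above all others, with log2 fold changes of -8.90 for liver over kidney (SE 0.11, q = 7.91e-89) and -10.07 for lung over kidney (SE 0.111, q = 3.52e-93). With 3 counts or fewer of Slc22a2 in 33 liver and 27 lung libraries, these fitted values depend on the prior count. The call of Slc22a2 for liver over lung (1.17, SE 0.101, q = 6.20e-20, higher in 32 of 47 strains) fell to 0.95 without 4 libraries with markers of another tissue and turned to -0.03 on the log2(TPM + 1) scale. Outside kidney its summed level was 11.1% of that of Slc34a1, a phosphate transporter of the proximal tubule, in liver and 10.1% in lung, and in kidney it was 11.1%.

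Slc22a5, the carnitine transporter, was expressed in all 3 tissues and highest in kidney. The levels were 182 TPM in kidney (median, 112 in CC020 to 284 in CC055), 31.2 TPM in lung (20.8 in CC012 to 44.6 in CC007) and 13.9 TPM in liver (6.56 in CC020 to 50.5 in CC021). No kidney library overlapped with those of the other tissues, and the log2 fold change was -2.66 for liver over kidney (SE 0.067, q = 8.96e-61) and -3.12 for lung over kidney (SE 0.0671, q = 4.74e-67). For liver over lung it was 0.46 (SE 0.0676, q = 1.12e-09, higher in 37 of 47 strains) and did not pass the fold threshold, and the sign turned on the TPM scale (-0.98 for log2(TPM + 1)).

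The other members of this group were low. Slc22a3, an organic cation transporter that carries monoamines, had means of 2.36 TPM in liver, 4.80 TPM in lung and 0.837 TPM in kidney and was higher in liver than in kidney by 2.36 (log2, SE 0.175, but 0.83 and not called with log2(TPM + 1)) and higher in lung than in kidney by 1.94 (log2, SE 0.176). Slc22a21, a carnitine transporter gene next to Slc22a5, had means of 0.521 TPM, 2.76 TPM and 2.89 TPM in liver, lung and kidney, and liver was lower than kidney (log2 fold change -1.46, SE 0.12). Slc22a4, which carries ergothioneine, was seen almost only in kidney, with a mean of 2.20 TPM there, 0.168 TPM in liver and 0.0696 TPM in lung, and did not pass the filter for testing. Slc22a16 had 9 counts in all libraries together.

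The organic anion transporters of the Slc22a family had the most calls in favour of kidney. Of 14 members 9 were tested, and all 9 were higher in kidney than in lung, 7 were higher in kidney than in liver, and none was called in the other direction. The shares of all genes were 20.6% higher in kidney than in lung and 20.8% higher in kidney than in liver. Slc22a12, the urate transporter of the proximal tubule, had the highest level of any member in kidney, with a median of 1334 TPM (481 in CC033 to 2019 in CC024), against 1.21 TPM in liver (0 in CC039 to 28.1 in CC033) and 2.0 TPM in lung (0.224 in CC062 to 15.9 in CC001). Slc22a6, the basolateral exchanger that takes up anionic drugs and p-aminohippurate, followed with 701 TPM in kidney (369 in CC032 to 1017 in CC049), 0.614 TPM in liver (0 in CC021 to 16.9 in CC035) and 0.783 TPM in lung (0 in CC024 to 9.81 in CC001). In both genes every kidney library lay far above every liver and lung library.

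The log2 fold change of Slc22a12 was -8.94 for liver over kidney (SE 0.128, q = 3.37e-83) and -9.47 for lung over kidney (SE 0.124, q = 1.25e-86), and 0.52 for liver over lung (SE 0.124, q = 6.29e-05), under the fold threshold. For Slc22a6 it was -8.99 for liver over kidney (SE 0.132, q = 5.42e-82) and -10.28 for lung over kidney (SE 0.139, q = 3.54e-85), the largest change in favour of kidney among the members. Slc22a6 was called higher in liver than in lung on the TMM scale (1.29, SE 0.132, q = 6.43e-16, 33 of 47 strains), but the value was -0.01 for log2(TPM + 1) and 0.05 with total counts. The traces of Slc22a6 and Slc22a12 outside kidney went with those of Slc34a1: Slc22a6 summed to 25.5% of Slc34a1 in liver, 24.5% in lung and 22.2% in kidney, and Slc22a12 to 45.2%, 62.6% and 39.2%. The part of kidney RNA in these low values was not tested.

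Slc22a7, a transporter of anions and nucleotides in liver and kidney, differed widely between strains. Its level in liver had a median of 55.3 TPM (9.23 in CC068 to 162 in CC017), in kidney 167 TPM (14.8 in CC021 to 523 in CC039) and in lung 0.254 TPM (0 to 3.27, the highest in CC001). Liver and kidney overlapped broadly and both exceeded lung, with 8.54 for liver over lung (log2, SE 0.232, q = 4.29e-58) and -9.19 for lung over kidney (SE 0.232, q = 1.07e-60). With 3 counts or fewer of Slc22a7 in 36 lung libraries, these fitted values depend on the prior count. For liver over kidney the value of Slc22a7 was -0.66 (SE 0.126, q = 1.69e-06, higher in liver in 11 of 47 strains), under the threshold, and -1.56 on the log2(TPM + 1) scale, where it was called.

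Slc22a22, a prostaglandin transporter gene, and Slc22a13, a transporter of urate and nicotinate, were detected at sizeable levels in kidney alone. Slc22a22 had a kidney median of 178 TPM (73.3 in CC020 to 294 in CC062), with liver libraries of 0 to 3.43 TPM and lung libraries of 0 to 2.18 TPM, and log2 fold changes of -8.73 for liver over kidney (SE 0.147, q = 1.07e-76) and -8.55 for lung over kidney (SE 0.133, q = 9.04e-80). Slc22a13 had 48.7 TPM in kidney (14.7 in CC020 to 101 in CC055), 0 to 3.97 TPM in liver and 0 to 0.971 TPM in lung, and log2 fold changes of -7.38 (SE 0.118, q = 1.45e-78) and -8.07 (SE 0.117, q = 1.57e-82) against kidney. Slc22a13 had 3 counts or fewer in 44 liver and 45 lung libraries, and Slc22a22 in 37 liver and 19 lung libraries. The fitted values of both genes thus depend on the prior count. For liver over lung, Slc22a22 (-0.18, q = 0.205, but -1.47 and called with total counts) and Slc22a13 (0.69, q = 2.37e-08) did not pass the threshold. A pseudogene listed as Slc22a13b-ps stayed at means of 0.359 to 0.918 TPM, and 763 windows of Slc22a13 also occur in Slc22a13b.

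Of the chromosome 19 cluster, Slc22a19 and Slc22a26 were mainly kidney genes, and Slc22a28 and Slc22a30 were expressed in liver and kidney. Slc22a19 had a kidney median of 134 TPM (13.6 in CC031 to 305 in CC015), and its log2 fold change was -8.32 for liver over kidney (SE 0.216, q = 1.55e-59) and -8.09 for lung over kidney (SE 0.204, q = 6.95e-61). With 3 counts or fewer of Slc22a19 in 39 liver and 32 lung libraries, these fitted values depend on the prior count. In liver Slc22a19 ranged from 0 to 6.69 TPM and in lung from 0 to 20 TPM, both highest in CC033, where the liver value rests on 5 counts. Slc22a26 had a kidney median of 35.3 TPM (8.6 in CC068 to 302 in CC055), a liver median of 0.38 TPM (0 to 62.0, the highest in CC043) and at most 0.732 TPM in lung.

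Slc22a26 was higher in kidney than in liver (log2 fold change -4.60, SE 0.191, q = 5.03e-42) and lung (-8.69 for lung over kidney, SE 0.209, q = 1.50e-62), and higher in liver than in lung (4.09, SE 0.202, q = 3.06e-36, 41 of 47 strains), the last at 0.86 and not called on the log2(TPM + 1) scale. In lung, 46 libraries had 3 counts or fewer of Slc22a26, 45 of Slc22a28 and 39 of Slc22a30, so the fitted values of these genes against lung depend on the prior count. The levels of Slc22a28 were 7.34 TPM in liver (median, 0 in CC016 to 91.2 in CC031), 127 TPM in kidney (26.9 in CC004 to 483 in CC031) and at most 1.43 TPM in lung. It was lower in liver than in kidney in 47 of 47 strains (log2 fold change -2.87, SE 0.0971, q = 1.86e-49) and higher in both than in lung (7.04, SE 0.165, q = 7.65e-64, and -9.92 for lung over kidney, SE 0.169, q = 3.35e-76). Slc22a30 was expressed in liver and kidney, with 92.3 TPM in liver (0 in CC031 to 171 in CC057), 135 TPM in kidney (0.721 in CC031 to 293 in CC062) and at most 1.29 TPM in lung. Its log2 fold change was 9.57 for liver over lung (SE 0.139, q = 1.14e-82), -9.17 for lung over kidney (SE 0.139, q = 9.05e-81) and 0.40 for liver over kidney (SE 0.0733, q = 4.48e-07), the last under the threshold and of opposite sign on the TPM scale (-0.56 for log2(TPM + 1)). Slc22a29, the remaining expressed gene of the cluster, had means of 3.11 TPM in kidney, 0.324 TPM in liver and 0.0877 TPM in lung and was not tested.

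For the other Slc22a genes, transport is less well defined or other functions are known, and 4 were tested. Between lung and kidney 1 was higher in lung and 1 in kidney, and between liver and kidney 1 was higher in liver and 2 in kidney. Between liver and lung 1 was higher in liver and 1 in lung. Over all genes the share called per comparison and direction was 15.6% to 31.0%. Slc22a23, an orphan member, was expressed in all 3 tissues, with medians of 28.6 TPM in liver (17.6 in CC015 to 44.6 in CC004), 51.5 TPM in lung (38.7 in CC015 to 67.0 in CC035) and 31.7 TPM in kidney (16.4 in CC007 to 56.4 in CC038). None of its log2 fold changes reached 1: 0.62 for liver over lung (SE 0.0506, q = 5.10e-21), 0.83 for liver over kidney (SE 0.0506, q = 4.32e-29) and 0.21 for lung over kidney (SE 0.0507, q = 8.59e-05), and the first and second were negative on the TPM scale. Slc22a17, known as a receptor of lipocalin 2, had 11.4 TPM in lung (4.83 in CC033 to 21.2 in CC037), 13.7 TPM in kidney (5.91 in CC032 to 23.3 in CC027) and 0.503 TPM in liver (0 to 3.36, the highest in CC006). Slc22a17 was lower in liver than in lung (log2 fold change -2.79, SE 0.121, q = 8.49e-41) and kidney (-3.59, SE 0.121, q = 1.46e-49), and lung over kidney gave -0.80 (SE 0.111, q = 2.12e-10), under the threshold.

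Slc22a15 and Slc22a18 were low in all tissues. Slc22a15 had means of 2.03 TPM in liver, 7.27 TPM in lung and 1.26 TPM in kidney and was higher in lung than in kidney (2.004, SE 0.0777). Slc22a15 was also called higher in liver than in kidney (1.61, SE 0.0778), a call lost with total counts (0.64), log2(TPM + 1) (0.40) and log2(TPM + 0.1) (0.60). Slc22a18, which lies in the imprinted domain of distal chromosome 7, had means of 1.93 TPM in liver, 0.0999 TPM in lung and 9.93 TPM in kidney, and differed in all 3 comparisons (log2 fold changes 4.74 for liver over lung, -1.35 for liver over kidney and -6.09 for lung over kidney), but all 47 lung libraries had 3 counts or fewer, so the values against lung depend on the prior count. Slc22a14, a sperm gene, reached a mean of 0.947 TPM at most.

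In the Slco1 subfamily, whose genes lie side by side on chromosome 6, all 4 tested members of 6 were higher in liver than in lung, 3 were higher in liver than in kidney and 3 were higher in kidney than in lung. The shares of all genes were 23.9%, 15.6% and 20.6% in the same order. Slco1b2, the bile acid and drug uptake transporter of hepatocytes, had the highest level of any member in liver, with a median of 1231 TPM (727 in CC016 to 1722 in CC013), against 1.62 TPM in lung (0 in CC019 to 31.3 in CC010) and 1.21 TPM in kidney (0 in CC021 to 14.4 in CC027). Its log2 fold changes of 11.17 for liver over lung (SE 0.136, q = 9.87e-90) and 10.94 for liver over kidney (SE 0.139, q = 1.00e-87) were the largest in favour of liver among the members. Lung over kidney gave -0.23 (SE 0.133, q = 0.0981), under the threshold. The sum of Slco1b2 was 2.14% of that of Alb, the albumin gene of hepatocytes, in liver, 1.97% in lung and 1.75% in kidney, and its highest lung and kidney libraries, CC010 and CC027, were also the highest for Alb in those tissues (884 and 1129.5 TPM). The part of liver RNA in the lung and kidney values was not tested.

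Slco1a1, an organic anion transporting polypeptide known to be higher in male than in female liver and kidney, was high in both tissues. Its level was 518 TPM in liver (median, 263 in CC016 to 1097 in CC042), 553 TPM in kidney (152 in CC004 to 1864 in CC062) and 1.17 TPM in lung (0 in CC037 to 15 in CC015). Slco1a1 was above lung in all liver and kidney libraries (log2 fold changes 10.30, SE 0.145, q = 4.23e-84, and -9.30 for lung over kidney, SE 0.144, q = 6.74e-80). Its call for liver over kidney lay at the threshold (1.003, SE 0.103, q = 1.12e-15, higher in 43 of 47 strains), and the value was 0.90 with DESeq2 size factors, 0.94 without the 4 libraries with markers of another tissue and 0.07 for log2(TPM + 1).

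Slco1a4, which takes up bile acids and digoxin, and Slco1a6, a renal member, pointed to different tissues. Slco1a4 had 25.8 TPM in liver (2.81 in CC038 to 177 in CC025), 2.23 TPM in kidney (0.252 in CC020 to 60.2 in CC015) and at most 1.41 TPM in lung, and was higher in liver than in lung (7.95, SE 0.291, q = 7.65e-47) and kidney (3.64, SE 0.231, q = 6.21e-28, 45 of 47 strains) and higher in kidney than in lung (-4.31 for lung over kidney, SE 0.282, q = 2.97e-27). With 3 counts or fewer of Slco1a4 in 28 lung libraries, its fitted values against lung depend on the prior count. Slco1a6 had 274 TPM in kidney (126 in CC004 to 746 in CC049), 0.356 TPM in liver (0 to 13.8, the highest in CC035) and 0.443 TPM in lung (0 to 3.60, the highest in CC001), with log2 fold changes of -8.70 for liver over kidney (SE 0.138, q = 4.71e-79) and -9.90 for lung over kidney (SE 0.142, q = 6.30e-83). Its call for liver over lung (1.2, SE 0.13, q = 1.02e-14, 32 of 47 strains) was lost without the 4 libraries with markers of another tissue (0.92) and turned on the log2(TPM + 1) scale (-0.06). The sum of Slco1a6 was 14.0% of that of Slc34a1 in liver, 12.7% in lung and 10.5% in kidney.

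In the Slco2 to Slco6 subfamilies, of 6 tested among 9, 5 were higher in lung than in liver and none the other way round, and between lung and kidney 3 were higher in lung and 2 in kidney. Of all genes, 31.0% were higher in lung than in liver, and between lung and kidney 25.5% were higher in lung and 20.6% in kidney. Slco2a1, the prostaglandin transporter, led with 252 TPM in lung (157 in CC041 to 548 in CC037), against 16.8 TPM in liver (7.36 in CC006 to 37.3 in CC068) and 9.25 TPM in kidney (3.78 in CC061 to 24.9 in CC016). Every lung library lay above every liver and kidney library, with log2 fold changes of -2.43 for liver over lung (SE 0.0949, q = 1.90e-44) and 4.23 for lung over kidney (SE 0.0962, q = 8.12e-65), and liver was above kidney (1.80, SE 0.0965, q = 2.89e-33, 47 of 47 strains). That last call of Slco2a1 was lost with total counts (0.81), log2(TPM + 1) (0.74) and log2(TPM + 0.1) (0.79).

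Slco4c1, a transporter of digoxin and thyroid hormone first described in kidney, was higher in lung than in kidney in these male mice. Lung held 44.6 TPM (median, 26.6 in CC015 to 78.0 in CC038) and kidney 9.47 TPM (0.721 in CC039 to 29.5 in CC029), and all 47 liver libraries had 3 counts or fewer. The log2 fold change for lung over kidney was 1.78 (SE 0.155, q = 1.52e-19), with lung above kidney in 46 of 47 strains, and liver was below both tissues (-7.20 against lung, SE 0.217, q = 3.58e-54, and -5.43 against kidney, SE 0.214, q = 7.32e-44), fitted values that depend on the prior count because liver was at the counting limit. Panct2, a noncoding RNA gene at the same locus, had medians of 6.39 TPM in lung and 2.01 TPM in kidney, and since the strand of counting is not given in the sources used here, reads of the 2 genes cannot be told apart where they overlap.

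Slco3a1, a prostaglandin and thyroid hormone transporter, had 43.5 TPM in lung (31.3 in CC017 to 76.7 in CC033), 61.4 TPM in kidney (35.1 in CC017 to 93.2 in CC062) and 1.04 TPM in liver (0.225 in CC044 to 5.95 in CC033). It was lower in liver than in lung (log2 fold change -3.77, SE 0.0738, q = 7.15e-71) and kidney (-4.77, SE 0.074, q = 6.51e-80), while its call for lung over kidney lay at the threshold (-1.01, SE 0.0649, q = 1.13e-27) and became -0.87 with DESeq2 size factors. Slco5a1 showed the largest difference in favour of lung over kidney (5.28, SE 0.197, q = 6.54e-46) from means of 3.45 TPM in lung, 0.0542 TPM in kidney and 0.0492 TPM in liver, and was lower in liver than in lung (-4.98, SE 0.198, q = 7.20e-44). With 3 counts or fewer of Slco5a1 in 42 kidney and 40 liver libraries, these fitted values depend on the prior count. In favour of lung over liver the largest difference was that of Slco4c1. Slco4a1, a thyroid hormone transporter, had means of 8.02 TPM in kidney, 1.60 TPM in lung and 0.0890 TPM in liver and differed in all 3 comparisons (-2.35, -5.10 and -2.75). With 3 counts or fewer of Slco4a1 in 43 liver libraries, its fitted values for liver depend on the prior count. Slco2b1, which carries conjugated steroids, had means of 0.522, 1.12 and 0.909 TPM and no call.

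In deposited TPM, before TMM scaling, 10 members had a mean under 1 in every tissue, and 13 members did not pass the filter for testing. Slco6d1 had 0 counts in all libraries, and Slco6c1, Slco1c1, Slc22a16, Slc22a8, Slco1a5, Slc22a20 and Slco6b1 had between 4 and 73 counts in total. Their highest libraries were 0.190 TPM for Slco6c1 and Slco1c1, 0.6 TPM for Slc22a16, 0.430 TPM for Slc22a8, 0.630 TPM for Slco1a5, 0.590 TPM for Slc22a20 and 2.03 TPM for Slco6b1, all in deposited TPM, and Slc22a14 and Slc22a27 reached 2.75 TPM in kidney of CC049 and 2.76 TPM in liver of CC024. Slco1c1 is known as a transporter of the blood-brain barrier and the Slco6 genes as genes of the testis, tissues not sampled here. Slc22a8, by contrast, is an organic anion transporter known from the kidney, and it had 13 counts in all. The files name 3 transcripts for Slc22a8, and genes with more than 1 named transcript had lower medians: over all genes the median of the mean CPM was 2.42 for the 18311 genes with 1 transcript and 0.323 for the 6112 genes with more, and among the members it was 18.7 for 33 and 0.400 for 8. Slco3a1, with 2 named transcripts, was an exception at 61.4 TPM in the median kidney. Whether reads shared between transcripts were left out was not tested.

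Genes that work with these transporters were read off the same fit. Of all genes tested, 23.9% were higher in liver than in lung and 31.0% higher in lung. Between liver and kidney 15.6% were higher in liver and 20.8% in kidney, and between lung and kidney 25.5% were higher in lung and 20.6% in kidney. Of 17 efflux and bile acid transporters 14 were tested: 11 were higher in liver than in lung and 1 in lung, 5 were higher in liver and 7 in kidney, and 2 were higher in lung and 10 in kidney. The largest changes were those of Abcb11, the bile salt export pump (11.14 for liver over lung, 11.22 for liver over kidney), Abcc2, an exporter of conjugates (9.57 for liver over lung), Slc51a, a basolateral steroid exporter (-7.94 for liver over kidney), and Slc17a3, a urate exporter, and Slc10a2, the sodium-dependent bile acid transporter of ileum and tubule (-9.33 and -9.25 for lung over kidney). Like the Slc22a anion transporters, most members of this list were thus lower in lung than in kidney. Of 19 transcription factors known to act on these genes 11 were tested: 7 were higher in liver than in lung and none in lung, 6 were higher in liver and 1 in kidney, and 2 were higher in lung and 6 in kidney. Among them Nr0b2, a corepressor induced by bile acids, was at 8.29 and Hnf4a, a nuclear receptor of liver and tubule, at 7.97 for liver over lung, Foxa3, a hepatocyte factor, at 8.91 and Nr0b2 at 4.69 for liver over kidney, and Hnf4a at -7.89 for lung over kidney. Of 5 PDZ scaffold genes 3 were tested, and Slc9a3r1, which tethers transporters at the brush border, was at 2.61 for liver over lung and -2.78 for lung over kidney, Slc9a3r2 at -3.17, -0.19 and 2.98 for liver over lung, liver over kidney and lung over kidney, and Shank2 at -1.17 for liver over kidney.

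Promoters of 35 members, 40 in all from 250 bases before to 50 bases after the start (RefSeq, GRCm38.p6), were searched on both strands for short motifs, 3 of which are given here. CAAAGTCCA, a form of the HNF4 site, was in 0.475% of 32851 promoters and in 0 of the 40 member promoters. TTCNNNGAA, the STAT5 site, was in 20% of the member promoters and 8.30% of all, and TATAAA in 20% and 13.6%. The STAT5 letters were found for Slc22a15, Slc22a16, Slc22a19, Slc22a26, Slco1a5, Slco1b2 and Slco2b1. These are matches of letters in a short window and no sign of binding.

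Variation between strains was examined for members past the expression filter of the study (TMM-normalized TPM over 1 in more than 50% of the libraries of a tissue, and no single library set apart by a split into 2 clusters). Members made up 14 of the 8623 liver genes past it, 15 of the 11994 lung genes and 25 of the 10451 kidney genes. Slc22a3 in liver and Slc22a28 and Slco4a1 in kidney were removed because 1 library stood apart. The median SD over strains of log2(TPM + 1) was 0.52 for the members in liver (0.33 for all genes), 0.40 in lung (0.33) and 0.48 in kidney (0.32).

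Spread differed by member more than by tissue. In liver Slc22a30 (SD 1.39), Slco1a4 (1.31), Slc22a28 (1.1) and Slc22a7 (1.1) lay above the 97th percentile of all genes, whereas Slc22a23 (0.24, percentile 19.3) and Slco1b2 (0.27, 31.9) were steady. In kidney Slc22a30 (1.33), Slc22a26 (1.25), Slc22a7 (1.24), Slco1a4 (1.12) and Slco4c1 (1.07) were at percentiles of 97.5 to 98.6. In lung the most variable members were Slco1b2 (0.99), Slc22a12 (0.88) and Slco1a1 (0.76), and Slc22a23 was again steady (0.19, percentile 11.7). The variable lung members are those that are high in liver or kidney. Over the 47 lungs the level of Slco1b2 followed the hepatocyte markers Apoa1 (r = 0.927), Alb (0.90), Ttr (0.853) and Tat (0.796), and less so Cyp2e1 (0.423), and Slc22a12 followed Slc34a1 (0.856). In liver Slc22a12 likewise followed Slc34a1 (r = 0.881), Kap (0.887) and Lrp2 (0.774), all genes of the proximal tubule. Values with the other tubule markers are not given here, and 3 of the 7 listed had a mean under 1 TPM in liver.

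The 2 strains CC031 and CC043 stood apart in the chromosome 19 cluster, in both liver and kidney. They had the lowest levels of Slc22a30: 0 TPM (0 counts) and 0.278 TPM (2 counts) in liver, where the next strain, CC016, had 32.0 TPM, and 0.721 TPM (3 counts) and 1.65 TPM (6 counts) in kidney, where the next, CC020, had 53.7 TPM. The same strains had the highest levels of its near copy Slc22a28, 91.2 and 85.8 TPM in liver against a median of 7.34 TPM, and 483 and 253 TPM in kidney against a median of 127 TPM. Slc22a30 was thus at or near the counting limit where Slc22a28 was highest. The sum of the 2 genes in CC031 and CC043 was 91.2 and 86.1 TPM in liver, inside the range of all strains (32.0 to 177 TPM, median 104), and 484 and 254.7 TPM in kidney (range 88.8 to 488 TPM, median 262). Whether reads of one gene were assigned to the other in these strains was not tested.

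CC031 and CC043 also held the lowest kidney levels of Slc22a19, 13.6 and 20.8 TPM against a median of 134 TPM, and high levels of Slc22a26. In kidney Slc22a26 fell into 2 separate ranges: 6 strains lay between 164 and 302 TPM (CC055, CC031, CC043, CC033, CC049 and CC035, from high to low), and the next, CC015, had 71.3 TPM. In liver the highest values of Slc22a26 were 62.0 TPM in CC043 (442 counts), 35.8 TPM in CC033 (27 counts) and 27.5 TPM in CC031 (111 counts), against a median of 0.38 TPM. Rn45s made up 69.0% of the counts in liver of CC033. CC033 was a liver library with a high level of the tubule gene Slc34a1 (52.8 TPM, median 2.34), whereas Slc34a1 was 7.70 TPM in CC043 and 2.71 TPM in CC031, so the tubule gene was not high in CC031. Slc22a29, with a median of 2.68 TPM in kidney, had 0 counts in kidney of CC031 and CC043, as it did in CC020, CC021 and CC059.

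Slc22a19 was seen in lung in some of the same strains. Its highest lung levels were 20 TPM in CC033 (132 counts), 7.7 TPM in CC049 and 6.7 TPM in CC035, against a median of 0.254 TPM, and CC043 had 2.59 TPM (49 counts). In lung of CC033 Slc22a19 was at 901% of Slc34a1, and over all kidneys it was at 4.56%, and Slc34a1 was 2.22 TPM in that lung. The strains in this account of the cluster were named after their values were seen, and the differences between them were not tested.

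**Figure D3:**
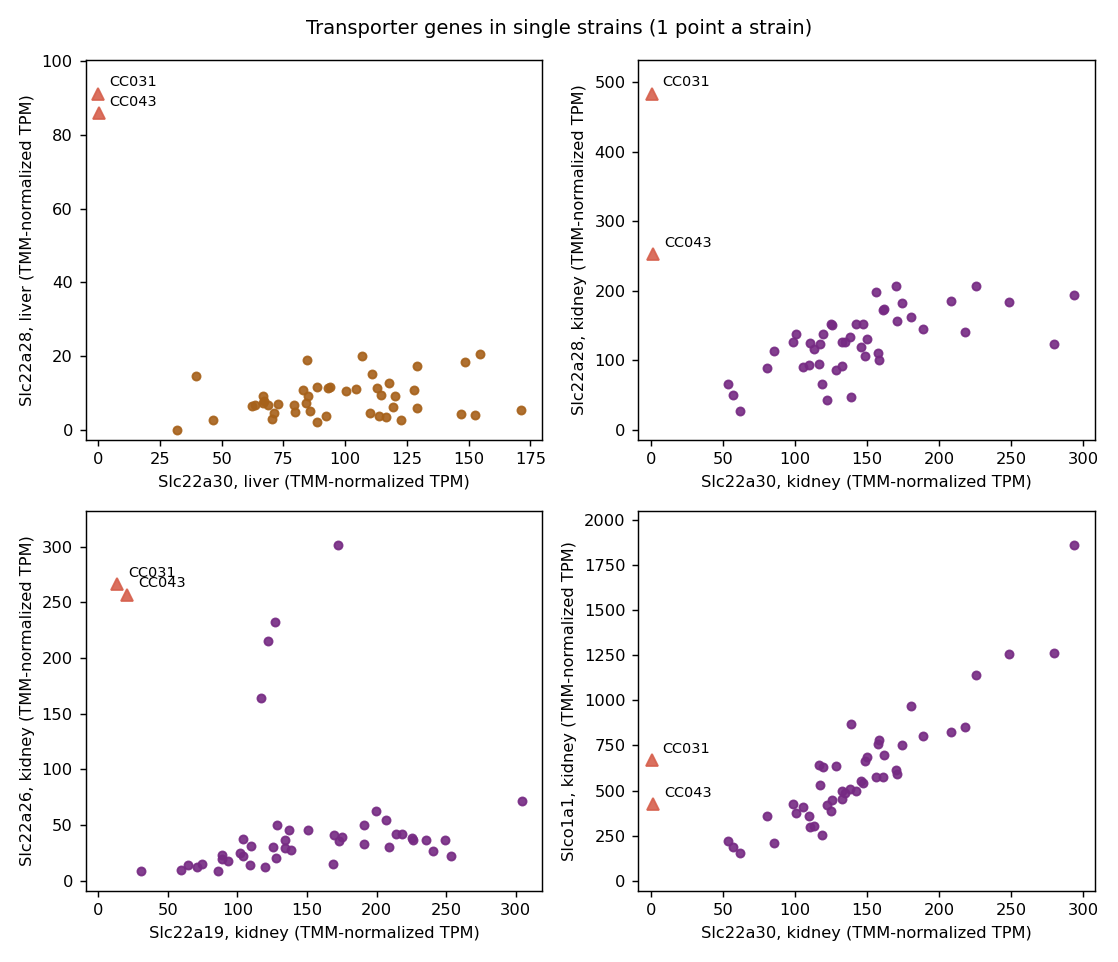
Strain values in TMM-normalized TPM are plotted for Slc22a30 against Slc22a28 in liver and in kidney, Slc22a19 against Slc22a26 in kidney and Slc22a30 against Slco1a1 in kidney, with 1 point per strain and CC031 and CC043 as triangles. The triangles lie near 0 for Slc22a30 and highest for Slc22a28, and the other 45 strains rise together for Slc22a30 and Slco1a1 in kidney.

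Whether strains that were high in one tissue were also high in another was tested by correlating rank inverse normal values over the 47 strains, with 100000 permutations and adjustment over all genes past the filter in both tissues. Between liver and kidney 3 of 13 members had q at most 0.1, all positive, which is the share of all genes (23.0%, with 22.5% positive and 0.426% negative). Slc22a30 had r = 0.529 (permutation p = 0.00015, q = 0.00274, rho = 0.443 with p = 0.00197), and r was 0.435 without CC031 and CC043. Slc22a7 had r = 0.504 (p = 0.0003, q = 0.00478, rho = 0.548 with p = 0.00012), and 0.480 without CC002 and CC068. Strains with low Slc22a7 in liver thus tended to have low Slc22a7 in kidney, as in CC021 with 15.7 and 14.8 TPM. Slc22a5 had r = 0.369 (p = 0.0112, q = 0.063), but rho was 0.276 (p = 0.0608) and r was 0.260 without CC021 and CC055. The call of Slc22a5 was also lost with TPM not rescaled by TMM (0.24, q = 0.261) and without strains under 4000000 counts (0.25, q = 0.299). Slc22a28, which the filter removed in kidney, had r = 0.649 (p = 1e-05, the smallest that the permutations can give, rho = 0.614, and 0.546 without the 2 farthest strains), and it was called when the step for libraries that stand apart was left out.

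Between liver and lung 0 of 9 members passed in the permutation test (12.9% of all genes), with 1 of 9 at an unadjusted p under 0.05 and 0 of 9 by Spearman's rho at the same q. Between lung and kidney 1 of 12 members passed (17.0% of all genes), and its sign was negative, as for 0.442% of all genes. Slco4c1 had r = -0.416 (permutation p = 0.00354, q = 0.0339), rho = -0.487 (p = 0.00065) and r = -0.484 without CC015 and CC038: strains with more Slco4c1 in lung tended to have less in kidney. With deposited TPM not rescaled by TMM the value was -0.29 (q = 0.352). Panct2, at the same locus, followed Slco4c1 within lung (r = 0.68) and within kidney (r = 0.78), while its own correlation between the tissues was -0.144 (p = 0.337, rho = -0.164).

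**Figure D4:**
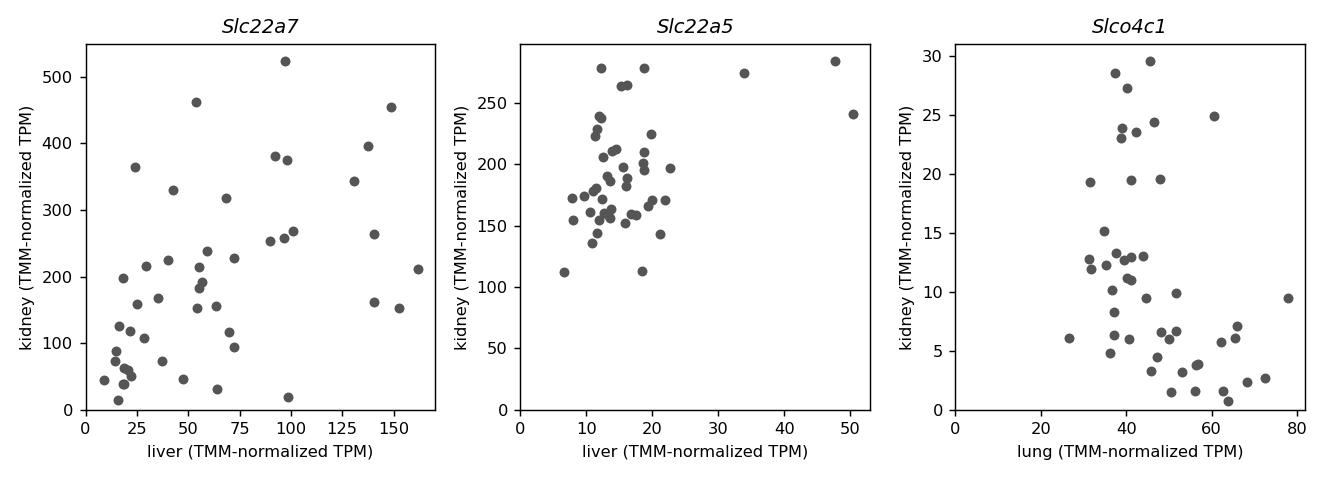
Each point is 1 of 47 strains, with TMM-normalized TPM in liver against kidney for Slc22a7 and Slc22a5 and in lung against kidney for Slco4c1, on linear axes. Slc22a7 tends to rise in both tissues together, the 3 points far to the right for Slc22a5 are CC021, CC055 and CC015 with 50.5, 47.6 and 33.9 TPM in liver, and Slco4c1 in kidney tends to be lower in strains with higher lung values, a negative correlation that was lost with TPM not rescaled by TMM.

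Several members varied together over strains within kidney. The study fitted sequencing batch as a covariate, whereas no batch term was used here, and the part of batch in these pairs was not tested. Of 300 pairs of members 37 had q at most 0.1 in the permutation test, 33 of them positive, against 3.90% of all pairs of a member and another gene (2.60% positive). The 33 positive pairs had r from 0.424 to 0.806, rho from 0.364 and, without the 2 farthest strains of each, r from 0.288 to 0.903. Within liver 0 of 91 pairs passed (0.392% of all pairs), with 12 of 91 at an unadjusted p under 0.05 and 0 by Spearman's rho. In lung 2 of 105 passed (2.38% of all pairs, 1.37% positive), Slco1a1 with Slco1b2 (r = 0.748) and Slc22a12 with Slco1a1 (r = 0.611), the members whose lung levels moved with hepatocyte or tubule genes.

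Many of the called kidney pairs fall into 1 set by eye, in which Slco1a1 varied with Slc22a30 (r = 0.806, rho = 0.827, and 0.903 without the 2 farthest strains) and with Slc22a2 (r = 0.801, rho = 0.788), each with p = 1e-05, the smallest that the permutations can give, and q = 0.00522. Slc22a2 with Slc22a30 (0.685), Slco1a1 with Slco3a1 (0.658), Slc22a30 with Slco3a1 (0.601), Slc22a2 with Slc22a7 (0.594) and Slc22a22 with Slco1a1 (0.554) belonged with them. This set holds uptake genes of cations and anions on chromosomes 6, 7, 15, 17 and 19, and several of its members followed Kap, the kidney androgen-regulated protein gene: r with Kap was 0.767 for Slco1a1, 0.763 for Slc22a30, 0.715 for Slc22a2, 0.711 for Slc22a7, 0.666 for Slco1a4 and 0.564 for Slco3a1. Slc47a1, which exports organic cations into the urine, followed Slco1a1 (0.691), Slc22a2 (0.690) and Slc22a30 (0.590).

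Outside this set Slc22a6 varied with Slc22a12 (r = 0.511, rho = 0.489, q = 0.0263, and 0.478 without the 2 farthest strains) and Slc22a13 with Slc22a19 (r = 0.553, rho = 0.572, and 0.530). Slc22a5 followed the tubule markers Lrp2 (0.658) and Slc5a12 (0.483), and its values with the other tubule markers are not given here. The 7 tubule markers differed in how many of the 25 kidney members were called with them. These were 7 for Kap, 6 for Lrp2, 5 for Slc34a1, 5 for Slc5a2, 3 for Slc5a12, 3 for Slc7a13 and 1 for Cubn, against 3.90% of all pairs of a member and another gene. The summed level of the 7 tubule markers, Kap, Lrp2 and Slc5a12 among them, ranged from 38274 to 143385 TPM over the kidneys, and its part in the shared variation was not tested. The 4 negative pairs were Slc22a4 with Slco2a1 (-0.563, q = 0.0114), Slc22a30 with Slco2a1 (-0.462, q = 0.0516), Slco1a6 with Slco4c1 (-0.439, q = 0.0708) and Slc22a6 with Slco4c1 (-0.423, q = 0.0893). A pair of Slc22a13 and Slc22a26 is counted among the 33, but Slc22a26 falls into 2 ranges of strains, so no single correlation describes it.

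**Figure D5:**
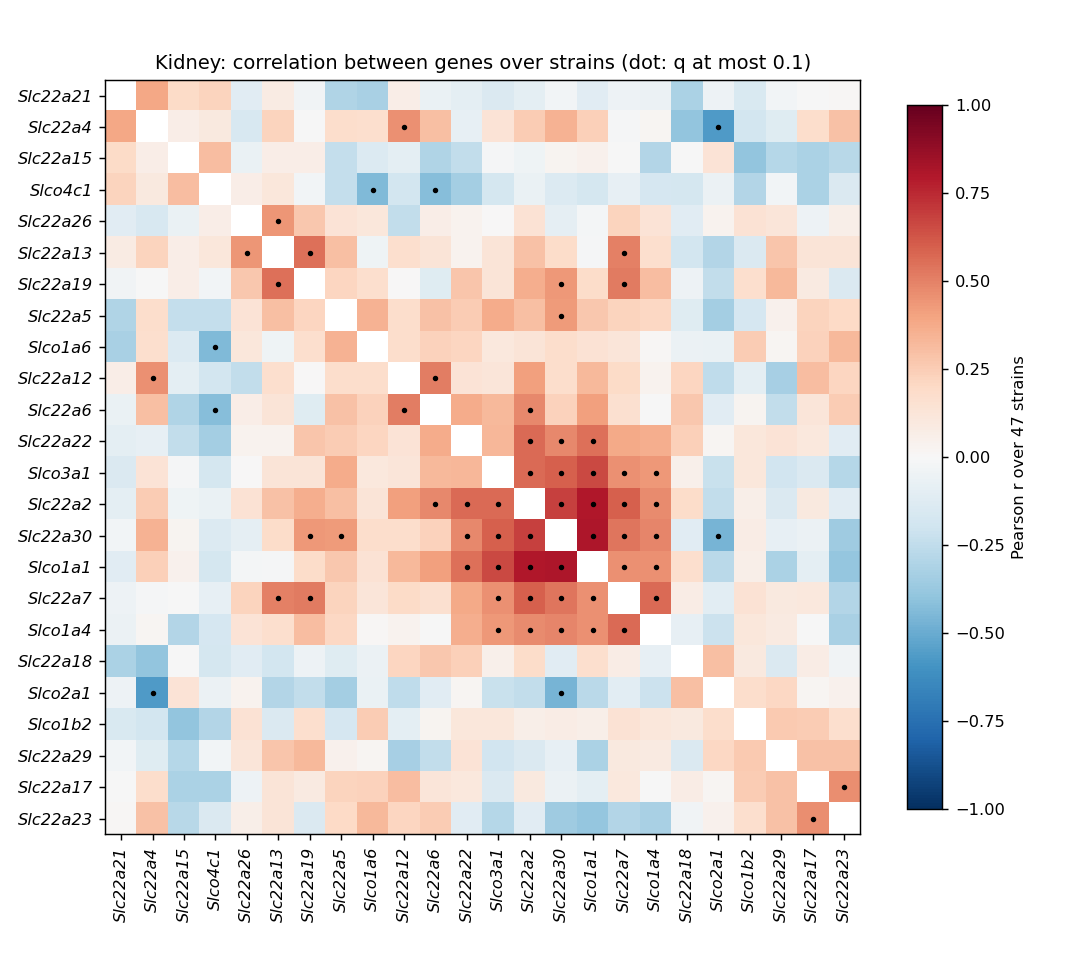
Pearson's r over 47 strains between 24 of the 25 members past the filter in kidney is drawn as colour from -1 (blue) to 1 (red), with genes ordered by similarity and a dot where q was at most 0.1. A red block joins Slc22a22, Slco3a1, Slc22a2, Slc22a30, Slco1a1, Slc22a7 and Slco1a4, Slc22a12 and Slc22a6 are joined by a dot, and 4 dotted pairs are blue.

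For members with a mean of at least 10 TPM, the genes with the most similar strain pattern in each tissue were noted as a description, 3 per member. In liver they had r from 0.472 to 0.696 over 10 members (rho from 0.436, and r from 0.404 without the 2 farthest strains), and 29 of 30 had q at most 0.1. Slc22a5 was nearest to Slc27a2 (0.68), Acot12 (0.67) and Josd1 (0.63), and Slc22a7 to H6pd (0.52), Klf9 (0.52) and BC039771 (0.50). The nearest genes were Hsd3b5 (0.66), Tm9sf3 (0.55) and Tram1 (0.55) for Slco1a1, Hpgd (0.66), Abcb1a (0.58) and Ifit3b (0.57) for Slco1a4, and Rgn (0.67), Fdx1 (0.62) and Strap (0.59) for Slco1b2. Slc27a2 and Acot12 are enzymes of fatty acid and acetate metabolism, Hsd3b5 is a male-predominant steroid enzyme of mouse liver, and Abcb1a is a drug exporter. Slc22a30 was nearest to Hes6 (0.61), 5730435O14Rik (0.59) and Mrpl43 (0.58), Slc22a23 to Vps26b (0.59) and AI464131 (0.54), Slco2a1 to Cryl1 (0.55), Gm3704 (0.54) and Actn1 (0.52), and Slc22a28 to Terc (0.51), Cnih1 (0.49) and Car3 (0.47), the last not past the threshold.

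In lung the nearest genes had r of 0.498 to 0.785 over 6 members (rho from 0.465, and r from 0.421 without the 2 farthest strains), and all 18 had q at most 0.1. Slco2a1 was nearest to Epas1 (0.79), Fam65a (0.75) and Aff3 (0.74), and its r with Cdh5, the endothelial cadherin gene, was 0.656, while with the other endothelial markers Pecam1, Kdr and Vwf it was 0.0870, 0.0446 and 0.199. Epas1 encodes a hypoxia-inducible factor abundant in endothelium. Slco4c1 was nearest to Soat1 (0.69), Panct2 (0.68) and Hdc (0.63), Slco3a1 to Zbed6 (0.62), Mob1b (0.61) and Zc3hav1l (0.60), and Slc22a5 to Atp7b (0.61), Selenbp1 (0.56) and Acad8 (0.50). Slc22a17 was nearest to 4930413G21Rik (0.71), Lypla2 (0.71) and Abhd17a (0.70), and Slc22a23 to Plxna1 (0.68), Glis2 (0.66) and Kctd5 (0.64).

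In kidney r ranged from 0.514 to 0.835 over 18 members (rho from 0.479, and r from 0.450 without the 2 farthest strains), Slc22a28 having been removed by the filter, and all 54 had q at most 0.1. Tmco3 was among the 3 nearest genes of Slc22a2 (0.84), Slco1a1 (0.83), Slc22a30 (0.76) and Slc22a7 (0.69), and Kap among those of Slco1a1 (0.77), Slc22a30 (0.76) and Slc22a7 (0.71). The others of these members were Rabggta (0.72) and Coasy (0.72) for Slc22a2, Cckar (0.78) for Slco1a1, Atp6v1a (0.76) for Slc22a30 and Crot (0.71), a peroxisomal carnitine transferase, for Slc22a7. The urate transporter Slc22a12 was nearest to Sirt7 (0.77), Map2k2 (0.74) and Stard10 (0.71), and Slc22a6 to Lamtor1 (0.69), Dpp3 (0.66) and Cystm1 (0.65).

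Among further kidney members, Slc22a19 was nearest to Mep1b (0.73), a brush border protease, Myo5a (0.64) and Acadm (0.63), Slc22a13 to Samm50 (0.68), Oxct1 (0.61) and Atp5a1 (0.61), and Slc22a5 to Aspa (0.68), B3galnt2 (0.68) and Cct4 (0.67). Slc22a22 had Tdrp (0.63), Sgtb (0.61) and Gdi2 (0.60), Slc22a26 had Aldh3b3 (0.60), Atp6v1d (0.57) and Hook1 (0.54), and Slco1a6 had Commd10 (0.58), Stk38l (0.57) and Lamp2 (0.52). For Slco3a1 they were Slc10a5 (0.67), Setd3 (0.65) and Rnf11 (0.64), for Slco2a1 Maml2 (0.63), Pabpc1 (0.60) and Prr12 (0.60), and for Slco4c1 Panct2 (0.78), 4933424G05Rik (0.61) and Zak (0.51). Slc22a17 had Dedd2 (0.75), Polrmt (0.71) and Galk1 (0.69), and Slc22a23 had Lrp3 (0.63), D10Jhu81e (0.62) and Cmip (0.61).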

How the data were processed

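RNA from liver, lung and kidney was depleted of ribosomal RNA and sequenced as 50-base single-end reads, after RNA integrity of at least 7. Per the labels and the methods of the study, the authors aligned reads with STAR 2.5.3a to strain-specific pseudo-genomes of mm9 (NCBIM37) and quantified genes with RSEM. The deposited expected counts and the deposited TPM were used, and 25 expected counts that were not whole were rounded. The strand of counting is not given in the sources used here.

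Counts of all 24423 genes in all libraries were kept where they exceeded 1 CPM in 30% or more of the libraries (12127 genes), scaled by TMM (edgeR 4.0.16) and tested by limma-voom in R 4.3.3 (limma 3.58.1). Strain was the block, since each mouse gave all 3 tissues. Two-sided p-values were adjusted by Benjamini-Hochberg over all genes tested. On simulated counts for liver against kidney with 10656 genes and 200 changed genes, 199 were recovered with 1 false call. The simulated tissues shared kidney levels apart from the changed genes, whereas 36.4% of genes were called between liver and kidney in the data. The simulation thus checks the fitting steps and cannot show errors from scaling tissues that differ in many genes. Levels are deposited TPM scaled by TMM within each tissue. Correlations over 47 strains used rank inverse normal values and 100000 two-sided permutations (scipy 1.17.1), adjusted over all genes past the filter in both tissues or, within a tissue, over all pairs of a member and another gene. Counts and p-values cover 1 mouse per strain. A floor of 3 counts per library was taken as the counting limit. Where most libraries of a tissue were at that limit for a gene, its fitted log2 fold changes against that tissue depend on the prior count.

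Every member was described. Those with a mean of at least 1 TPM in a tissue have their levels given, and those of at least 10 TPM their range, statistics and the 3 genes most alike. From the other lists, the 2 largest changes per pair of tissues are named. The members and lists were chosen with earlier results of these data known. Alternatives were another scaling, filter, test (edgeR quasi-likelihood, DESeq2 1.42.0), unit, set of strains and threshold. The batch covariate of the study was not used here, so the part of batch in the tissue differences and strain correlations was not tested. Results of 1 member and 2 other genes are not reported here by name, and counts over members include that member.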

Additional observations from a re-analysis of the deposited data

How the results depend on the processing

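With no replicate block the numbers of members called were 18, 22 and 23 for liver against lung, liver against kidney and lung against kidney, the same as with the block on strain, which pairs libraries of the same mouse. Over all alternatives they were 16 to 26, 19 to 26 and 22 to 28. Without 4 libraries with markers of another tissue (lung CC010, liver CC033, CC035 and CC036, chosen after seeing the data) they were 16, 21 and 23. Other libraries with such markers were kept, among them kidney of CC027 (Alb 1129.5 TPM) and lung of CC001 (summed tubule markers 813 TPM). Of 810 alternative values for single members 723 kept direction and call, 45 changed direction, 14 gained and 28 lost the call, and of 160 for strain correlations 153 kept both, 3 gained and 4 lost the call. Between lung and kidney the number of correlated members was 0 for TPM without TMM and 2 for log2(TPM + 1), for CPM and without strains under 4000000 counts. In liver 1 pair of members, Slc22a30 with Slco1a1 (r = 0.533, q = 0.062), was called without CC031 and CC043, and in kidney 28 by Spearman correlation. The cause was not tested.

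Most changes of direction came with scaling by total counts, log2(TPM + 1) and log2(TPM + 0.1), given in that order, each of which moves the liver values of all genes down. For liver over lung they were -0.74, -0.48 and -0.79 for Slc22a12, -0.70, -0.10 and -0.56 for Slc22a13, -0.16, -0.0268 and -0.092 for Slc22a2, -0.75, -0.84 and -0.86 for Slc22a23, -0.94, -0.76 and -0.96 for Slc22a3, -0.92, -0.98 and -1.03 for Slc22a5, -0.13, -0.0601 and -0.14 for Slco1a6, -0.98, -0.47 and -1.004 for Slco2b1, and -0.00941 with log2(TPM + 1) for Slc22a6. For Slc22a19 the value was 0.37 with no replicate block and 0.18 with only the 2 tissues compared. For liver over kidney they were -0.11, -0.13 and -0.13 for Slc22a23, -0.58, -0.56 and -0.64 for Slc22a30, -0.78, -0.32 and -0.72 for Slco2b1, and -0.63, -0.0138 and -0.16 for Slco5a1. For lung over kidney they were 0.15, 0.14 and 0.23 for Slco1b2 and 0.20, 0.15 and 0.29 for Slco2b1.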
